A study of Mus musculus with 36 samples.

Results

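The suppressors of cytokine signalling, encoded in mouse by Socs1 to Socs7 and Cish, are a family of proteins named for damping cytokine signals. Some of them are made in answer to a cytokine and damp the signal that induced them. The 8 genes were taken by their symbols from a table of 24127 genes. All 8 passed the minimum for a test, a mean normalized count of 10. RNA sequencing was done on dendritic cells of C57BL/6 mice, raised from marrow in GM-CSF and purified on CD11c, an integrin of their surface. The mutant cells, here KO, carried the labels LGP2ko and Dhx58-/- and are meant to lack the RNA helicase LGP2. Their counterparts came from wild-type (WT) mice. Cells of each genotype were transfected with 20 ng of PAMP RNA, which is the poly-U/UC tract of hepatitis C virus and a ligand of RIG-I. The controls are called mock or untreated by the labels and are called mock here. RNA was taken after 1, 3 or 6 h, which gives 12 groups of 3 libraries and 36 libraries in all. The labels speak of biological triplicates at plating and do not say whether these are separate mice. The p-values therefore cover only the spread among libraries of a group.

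Cytokine receptors of the JAK-STAT type signal through Janus kinases, which phosphorylate the receptor and then STAT transcription factors, and these switch on target genes, SOCS genes among them. Each SOCS protein has an SH2 domain that docks on a phosphorylated tyrosine and a C-terminal SOCS box that recruits elongins B and C and cullin-5 into a ubiquitin ligase. SOCS1 and SOCS3 also carry a short kinase inhibitory region that blocks the Janus kinases directly. In dendritic cells SOCS1 is known as a brake on interferon signalling and on cytokine output.

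Each library held between 4740909 and 14255730 gene reads, and the values are normalized counts, that is, reads divided by 1 size factor per library. Dhx58, the gene meant to be disrupted, kept reads in KO cells. At 3 h it averaged 451 ± 71.7 normalized counts in KO mock cells and 132 ± 14.8 in WT mock cells (SD, n = 3 each). With PAMP RNA it averaged 595 ± 24.7 in KO cells and 1477 ± 61.7 in WT cells. At 1 h with PAMP RNA it averaged 156 ± 20.8 in KO cells and 98.3 ± 6.59 in WT cells, a difference of 0.66 (adjusted p = 0.000679, SE 0.14) log2 units by limma. The mock values at all 3 times and the PAMP RNA values at 1 h go against the label, and the PAMP RNA values at 3 and 6 h go with it. No source used here gives the deleted part of the gene, and KO below means the libraries labelled so. All 11 listed dendritic cell markers were in the table, with Itgax, which encodes CD11c, at 2354 to 3441 normalized counts. Flt3 was at most 25.9 and Cd209a was 0 in 9 libraries. The marker sum at 3 h was 31028 to 33108 in KO and 45417 to 46458 in WT mock cells, and 35365 to 36183 in KO and 48634 to 49245 in WT cells with PAMP RNA. Most of that sum was the MHC class II pathway genes Cd74, H2-Aa and H2-Ab1, with medians of 19399, 9219 and 7467 over the libraries. Of 10 listed macrophage or monocyte markers 9 were in the table and summed to 164999 to 274683, most of it Lyz2. The neutrophil, T, B and NK cell lists summed to at most 264, 65.9, 18.6 and 20.7. The mast cell, stromal and plasmacytoid dendritic cell lists summed to at most 225, 12.7 and 5300.5. In the plasmacytoid list Bst2 ran from 366 to 4351 and Tcf4 from 171 to 889. Ccr9 was at most 80.2, and Siglech was at most 1.72 and 0 in 22 libraries. Fewer cells of a type and less RNA per cell cannot be told apart in such libraries.

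With PAMP RNA, Socs1 rose by far the most of the family and Socs3, Cish and Socs7 rose less, all from 3 h on except Socs3, which was already higher at 1 h. Socs2 rose mainly at 6 h, Socs5 lay below its mock cells at 3 and 6 h, and Socs4 passed the test in none of the 6 responses. A response here is PAMP RNA minus mock in cells of 1 genotype and time, on the scale log2(normalized count + 1). It was tested with limma, and a gene was called at a Benjamini-Hochberg adjusted p under 0.05 over 11853 genes. At 1 h, 1 of the 8 genes was called in KO cells, where 1.36% of all tested genes were called, and 1 in WT cells, where 0.945% were. It was Socs3 both times. At 3 h, 5 were higher and 1 lower in KO cells (background 50.6% of genes called). In WT cells at 3 h, 6 were higher and 1 lower (background 41.6%). The sixth was Socs6, whose sign turned with quantile normalization and with equal total reads. At 6 h, 5 were higher and 1 lower in KO cells (background 71.7%), and 6 were higher and 1 lower in WT cells (background 65.4%), with the same turn of Socs6. The median response of the 8 genes at 6 h was 1.04 in KO cells, where that of all tested genes was -0.03, and 0.88 in WT cells, where it was -0.02.

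**Figure D1:**
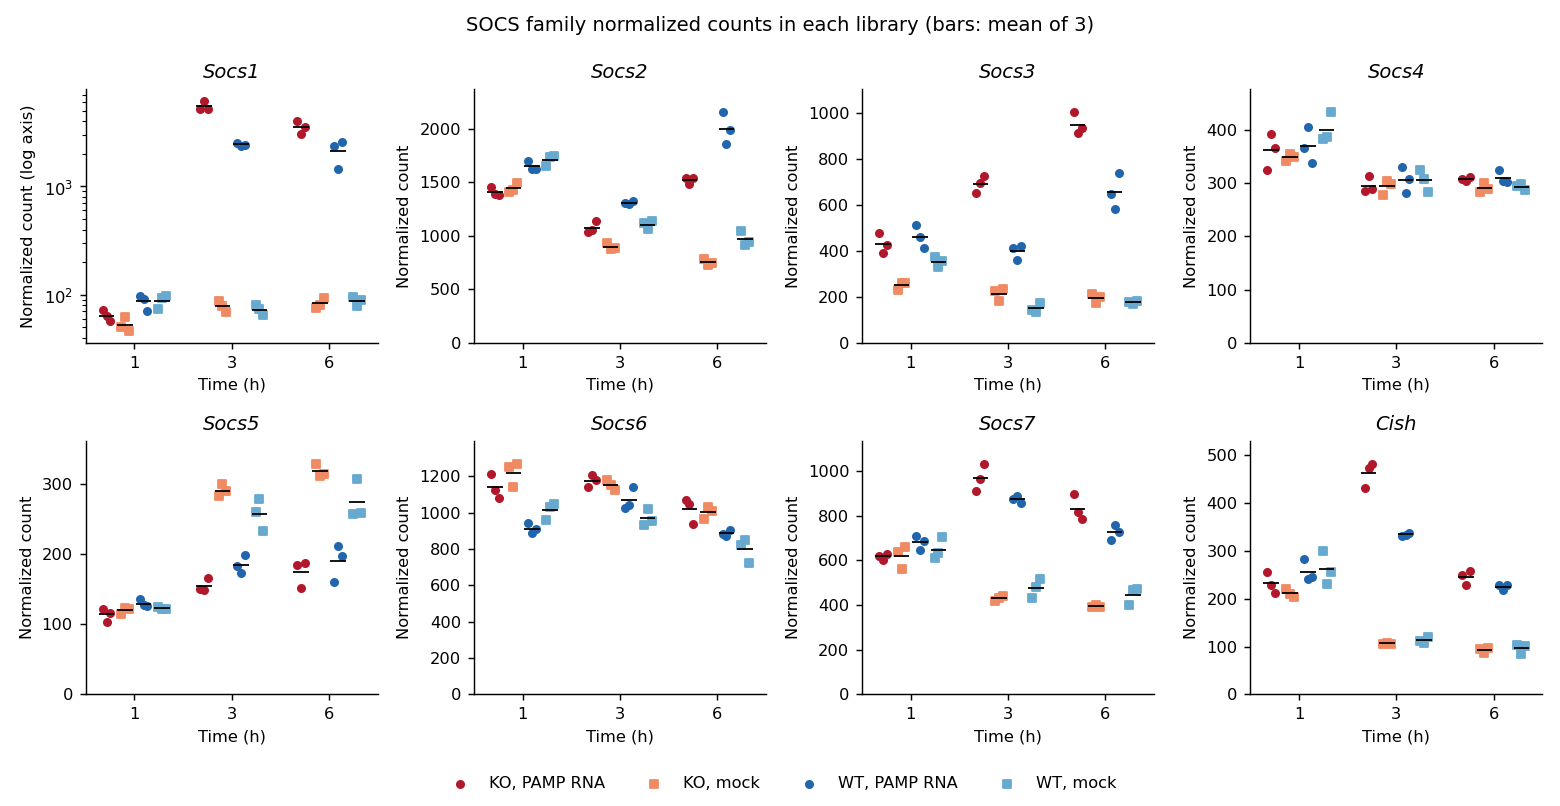
Normalized counts (vertical axis) of the 8 genes in each of the 36 libraries at 1, 3 and 6 h, in KO cells with PAMP RNA, KO mock cells, WT cells with PAMP RNA and WT mock cells, with a bar at the mean of 3; Socs1 alone is on a log axis. Socs1 with PAMP RNA stands apart from mock cells at 3 and 6 h, Socs5 with PAMP RNA lies below mock cells at those times, and mock Cish is lower at 3 h than at 1 h.

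Promoter sequences from RefSeq (GRCm38.p6; 250 bases before to 50 bases after the gene start) were at hand for 4 of the 8 genes. Those of Socs1, Socs3 and Cish are shown because these genes had the 3 largest responses at 3 h, and they run 5′ to 3′ on the gene's strand. Searched on both strands, by their letters alone, were the STAT motif TTCNNNGAA, the interferon-stimulated response element (GAAA, any 2 bases, GAAA) and the κB motif (GGG, any 2 bases, TTTCC). Capitals mark the matches: the interferon-stimulated response element in Socs1 and the STAT motif in Socs3 and Cish.
Socs1 (chr16:10785487-10785786, minus strand): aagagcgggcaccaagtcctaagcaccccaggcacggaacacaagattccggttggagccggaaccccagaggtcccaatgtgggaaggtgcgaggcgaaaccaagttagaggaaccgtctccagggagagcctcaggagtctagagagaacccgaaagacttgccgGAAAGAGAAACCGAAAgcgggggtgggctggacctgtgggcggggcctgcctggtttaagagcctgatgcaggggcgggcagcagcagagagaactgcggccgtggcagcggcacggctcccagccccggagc
Socs3 (chr11:117969317-117969616, minus strand): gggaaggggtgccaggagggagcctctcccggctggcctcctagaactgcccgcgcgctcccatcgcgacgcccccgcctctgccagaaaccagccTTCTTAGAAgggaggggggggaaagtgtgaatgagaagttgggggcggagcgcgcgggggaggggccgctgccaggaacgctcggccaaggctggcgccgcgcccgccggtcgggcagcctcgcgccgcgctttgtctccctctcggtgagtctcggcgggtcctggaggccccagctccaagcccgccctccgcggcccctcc
Cish (chr9:107296409-107296708, plus strand): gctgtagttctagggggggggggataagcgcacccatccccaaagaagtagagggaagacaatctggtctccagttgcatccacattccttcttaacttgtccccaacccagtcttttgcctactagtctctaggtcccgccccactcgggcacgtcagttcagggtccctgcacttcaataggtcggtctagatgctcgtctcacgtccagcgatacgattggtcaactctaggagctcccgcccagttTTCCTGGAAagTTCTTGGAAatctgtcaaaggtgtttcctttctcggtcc
In Socs1, 2 overlapping matches lie at bases 168 to 177 and 174 to 183 of the window. Socs3 holds 1 STAT motif at bases 97 to 105, and Cish holds 2, at bases 251 to 259 and 262 to 270, just inside the transcribed part. Socs4 (chr14:47276670-47276969, plus strand), the other promoter at hand, had no match. The RefSeq starts of Socs3 and Cish lie inside the longer GENCODE genes given below. Of all 32851 promoters of the table, 8.30% hold the STAT motif, 3.44% the interferon-stimulated response element and 1.63% the κB motif. These matches are letters in a window and were not tested for binding or for a link with the responses.

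Socs1 encodes the family's main brake on interferon receptors and lies at chr16:10782240-10785536 on the minus strand (GRCm38, GENCODE annotation). Its promoter is the one above with the interferon-stimulated response element. At 3 h it had 5253, 6211 and 5186 normalized counts in KO cells with PAMP RNA, against 87.6, 78.2 and 68.5 in KO mock cells. WT cells at 3 h had 2548, 2372 and 2411 with PAMP RNA, against 81.0, 73.2 and 64.8 in mock cells. All libraries with PAMP RNA lay far above all mock libraries, and every KO library with PAMP RNA lay above every WT one. The ratio of means was 71.1-fold in KO cells and 33.5-fold in WT cells. The log2 responses were 6.13 (adjusted p = 2.08e-36, SE 0.14) in KO cells and 5.05 (adjusted p = 6.41e-33, SE 0.14) in WT cells. At 6 h it had 3990.3, 3046 and 3527 in KO cells with PAMP RNA, against 76.1, 81.2 and 92.5 in KO mock cells. WT cells at 6 h had 2373, 1461 and 2553 with PAMP RNA, against 95.6, 78.3 and 88.9 in mock cells. The groups were again separate, by 42.3-fold in KO cells and 24.3-fold in WT cells, with WT replicate 2 the lowest of the 6 PAMP RNA libraries. At 1 h KO cells had 71.9, 63.7 and 57.2 with PAMP RNA and 50.4, 62.0 and 45.8 in mock cells. WT cells at 1 h had 98.0, 91.1 and 70.6 with PAMP RNA and 73.5, 93.4 and 96.8 in mock cells. Those groups overlapped, and the 1 h responses of 0.29 (adjusted p = 0.612, SE 0.14) in KO cells and -0.02 (adjusted p = 0.986, SE 0.14) in WT cells were not called. Ordered over the 12 groups, KO cells with PAMP RNA at 3 h came first and at 6 h second, and these did not overlap each other or the next group. WT cells with PAMP RNA at 3 h and 6 h came next and overlapped each other. Each of the 8 remaining groups overlapped its neighbour in the order.

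Socs3 encodes the brake that docks on gp130, the shared receptor chain of IL-6 and related cytokines, and lies at chr11:117966079-117970047 on the minus strand. It was the only one of the 8 genes called at 1 h, where it had 478, 391 and 424 normalized counts in KO cells with PAMP RNA, against 229, 262 and 262 in KO mock cells. WT cells at 1 h had 511, 462 and 414 with PAMP RNA, against 374, 329 and 358 in mock cells. The groups were separate in both genotypes, with log2 responses of 0.78 (adjusted p = 5.1e-08, SE 0.10) in KO cells and 0.38 (adjusted p = 0.0309, SE 0.10) in WT cells. The WT call was lost with no filter on low values (0.38, adjusted p = 0.085) and a fit of only the groups compared (0.38, adjusted p = 0.063). The same call was lost without WT mock 1 h replicate 2 or 3, or WT PAMP 1 h replicate 1 or 2 (0.31 to 0.39, adjusted p = 0.0826 to 0.264). Its 3 h counts were 652, 697 and 726 in KO cells with PAMP RNA, against 224, 184 and 234 in KO mock cells. In WT cells it had 414, 360.2 and 423 with PAMP RNA, against 145, 134 and 173 in mock cells. Its 6 h counts were 1003, 912 and 932 in KO cells with PAMP RNA, against 212, 174 and 199 in KO mock cells. In WT cells it had 649, 583 and 738 with PAMP RNA, against 178, 171 and 184 in mock cells. No PAMP RNA group overlapped its mock group at any time, and the KO groups lay above the WT groups with PAMP RNA at 3 and 6 h. The responses were 1.69 (adjusted p = 1.57e-20, SE 0.10) in KO cells and 1.40 (adjusted p = 2.32e-17, SE 0.10) in WT cells at 3 h. They were 2.28 (adjusted p = 7.14e-26, SE 0.10) in KO cells and 1.88 (adjusted p = 2.51e-22, SE 0.10) in WT cells at 6 h. Among the 12 groups KO cells with PAMP RNA at 6 h stood first without overlap. The lowest 5 groups, the KO mock groups and the WT mock groups at 6 h and 3 h, each overlapped the next.

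Cish encodes CIS, which cytokines such as GM-CSF and IL-3 induce through STAT5 and which limits that signal, and lies at chr9:107296026-107302784 on the plus strand. Part of its exons overlaps the opposite-strand genes Gm17040 (1167 bases) and Gm17041 (1459 bases), and these libraries, which do not mark strand, cannot tell their reads apart from those of Cish. At 3 h it had 430.02, 473 and 481 normalized counts in KO cells with PAMP RNA, against 106, 108 and 105 in KO mock cells. WT cells at 3 h had 331, 333 and 337 with PAMP RNA, against 112, 108 and 119 in mock cells. The 4 groups did not overlap, with the KO cells given PAMP RNA highest. The ratio of means was 4.33-fold in KO cells and 2.95-fold in WT cells. The log2 responses were 2.10 (adjusted p = 5.25e-25, SE 0.09) in KO cells and 1.55 (adjusted p = 1.01e-19, SE 0.09) in WT cells. By 6 h it had 250.1, 228 and 258 in KO cells with PAMP RNA, against 95.6, 86.4 and 96.0 in KO mock cells. The WT counts were 228, 218 and 229 with PAMP RNA, against 103, 84.8 and 101 in mock cells. The PAMP RNA groups stayed above their mock groups, while KO and WT cells with PAMP RNA overlapped. The responses were 1.39 (adjusted p = 1.87e-18, SE 0.09) in KO cells and 1.22 (adjusted p = 3.17e-16, SE 0.09) in WT cells. At 1 h the responses of 0.13 in KO cells and -0.02 in WT cells were not called (adjusted p = 0.81 and 0.972).

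Socs2, the other member known as a STAT5 target and best known for limiting growth hormone signalling, lies at chr10:95385362-95417180 on the minus strand and had the latest rise. At 6 h it had 1543, 1480.3 and 1538 normalized counts in KO cells with PAMP RNA, against 787, 726 and 745 in KO mock cells. WT cells at 6 h had 2155, 1856 and 1986 with PAMP RNA, against 1049, 913 and 939.7 in mock cells. The PAMP RNA libraries lay above their mock libraries, 2.02-fold in KO cells and 2.07-fold in WT cells. The responses were 1.01 (adjusted p = 3.49e-22, SE 0.05) in KO cells and 1.05 (adjusted p = 1.68e-22, SE 0.05) in WT cells. At 3 h it had 1038, 1052 and 1136 in KO cells with PAMP RNA, against 933, 879 and 889 in KO mock cells. The WT counts were 1311, 1294 and 1325 with PAMP RNA, against 1120.5, 1062 and 1134 in mock cells. These groups did not overlap either, with responses of 0.26 (adjusted p = 6.12e-05, SE 0.05) in KO cells and 0.25 (adjusted p = 0.000142, SE 0.05) in WT cells. The 3 h calls were lost with quantile normalization (0.01 and 0.04) or equal total reads (0.00 and 0.07). At 1 h Socs2 was 1378 to 1459.8 in KO cells with PAMP RNA and 1411 to 1494 in KO mock cells. It was 1622 to 1696 in WT cells with PAMP RNA and 1649 to 1745 in WT mock cells, and neither response was called. At each time and with each treatment all 3 KO libraries lay below all 3 WT libraries.

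Socs7, which in mice is tied to insulin receptor substrates, lies at chr11:97362551-97398542 on the plus strand. Its 3 h normalized counts were 912, 962 and 1033 in KO cells with PAMP RNA, against 417, 432 and 441 in KO mock cells. WT cells at 3 h had 875, 887 and 856 with PAMP RNA, against 432, 483 and 516 in mock cells. PAMP RNA and mock cells were separate, with responses of 1.17 (adjusted p = 8.5e-20, SE 0.07) in KO cells and 0.87 (adjusted p = 3.92e-15, SE 0.07) in WT cells. Its 6 h counts were 895, 815 and 785 in KO cells with PAMP RNA, against 390.04, 402 and 393 in KO mock cells. In WT cells it had 692, 760.03 and 729 with PAMP RNA, against 398, 466 and 474 in mock cells. The separation held, with responses of 1.07 (adjusted p = 1.05e-18, SE 0.07) in KO cells and 0.71 (adjusted p = 1.7e-12, SE 0.07) in WT cells. At 1 h it was 603 to 629 in KO cells with PAMP RNA and 561 to 662 in KO mock cells. It was 647 to 708 in WT cells with PAMP RNA and 609 to 703 in WT mock cells, and the groups overlapped in both genotypes.

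Socs5, linked to the EGF and IL-4 receptors, lies at chr17:87107679-87137839 on the plus strand and was the one member called lower. At 3 h it had 151, 149 and 166 normalized counts in KO cells with PAMP RNA, against 282, 300.1 and 289.6 in KO mock cells. WT cells at 3 h had 183, 173 and 198 with PAMP RNA, against 260.3, 279 and 234 in mock cells. By 6 h it had 185, 152 and 188 in KO cells with PAMP RNA, against 329, 312 and 315 in KO mock cells. The WT counts were 160.4, 211 and 198 with PAMP RNA, against 258, 307 and 258 in mock cells. All PAMP RNA libraries lay below all mock libraries of their genotype at both times. The responses were -0.90 (adjusted p = 3.63e-11, SE 0.10) in KO cells and -0.48 (adjusted p = 5.91e-05, SE 0.10) in WT cells at 3 h. They were -0.87 (adjusted p = 5.38e-11, SE 0.10) in KO cells and -0.53 (adjusted p = 4.83e-06, SE 0.10) in WT cells at 6 h. The mock level itself moved with time. At 1 h the mock libraries held 115 to 123 in KO cells and 121 to 125 in WT cells, below every mock library at 3 and 6 h. PAMP RNA libraries at 3 and 6 h lay between the mock libraries at 1 h and those at 3 h.

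Socs4 and Socs6 moved least. Socs4 (chr14:47276931-47296102, plus strand), linked to the EGF receptor, ran from 278 to 433 normalized counts over the 36 libraries. Its highest group mean was 1.38 times its lowest. Its response at 6 h was 0.08 in KO cells (95% interval -0.07 to 0.24) and 0.08 in WT cells (-0.08 to 0.23). At 3 h it was 0.01 (-0.15 to 0.16) in KO cells and 0.00 in WT cells (-0.15 to 0.16). Scaled to equal total reads, the 6 h values were -0.40 in KO and -0.29 in WT cells and passed the test as lower, as did the KO value at 3 h, -0.24. Under that scaling the median of all tested genes was -0.51 in KO and -0.39 in WT cells. Socs6 (chr18:88665224-88927481, minus strand), which binds the KIT receptor and insulin receptor substrates, ran from 725 to 1270.2. Its responses in KO cells were 0.03 at 3 h and 0.02 at 6 h and were not called. They were called lower with quantile normalization (-0.24, adjusted p = 0.000415 at 3 h, and -0.34, adjusted p = 1.3e-06 at 6 h). They were called lower with equal total reads too (-0.22, adjusted p = 0.000571 at 3 h, and -0.47, adjusted p = 5.4e-10 at 6 h). In WT cells it was called at 0.14 (adjusted p = 0.0451, SE 0.06) at 3 h and 0.15 (adjusted p = 0.0202, SE 0.06) at 6 h. Both values turned negative with quantile normalization (-0.03 and -0.10) and with equal total reads (-0.03 and -0.22). The 3 h call was also lost with TMM scaling (0.13, adjusted p = 0.0826), edgeR (0.12, adjusted p = 0.0834) and no filter on low values (0.14, adjusted p = 0.0685), and without WT mock 3 h replicate 1 or 3, or WT PAMP 3 h replicate 2 or 3 (0.10 to 0.16, adjusted p = 0.0515 to 0.251). The 6 h call was lost with a fit of only the groups compared (0.15, adjusted p = 0.0587), and without WT mock 6 h replicate 3, or WT PAMP 6 h replicate 3 (0.09 to 0.14, adjusted p = 0.0646 to 0.237). At 3 h Socs6 had 1028, 1044 and 1139.7 in WT cells with PAMP RNA, against 931, 1021 and 954 in WT mock cells. These 2 groups lay side by side without overlap.

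**Figure D2:**
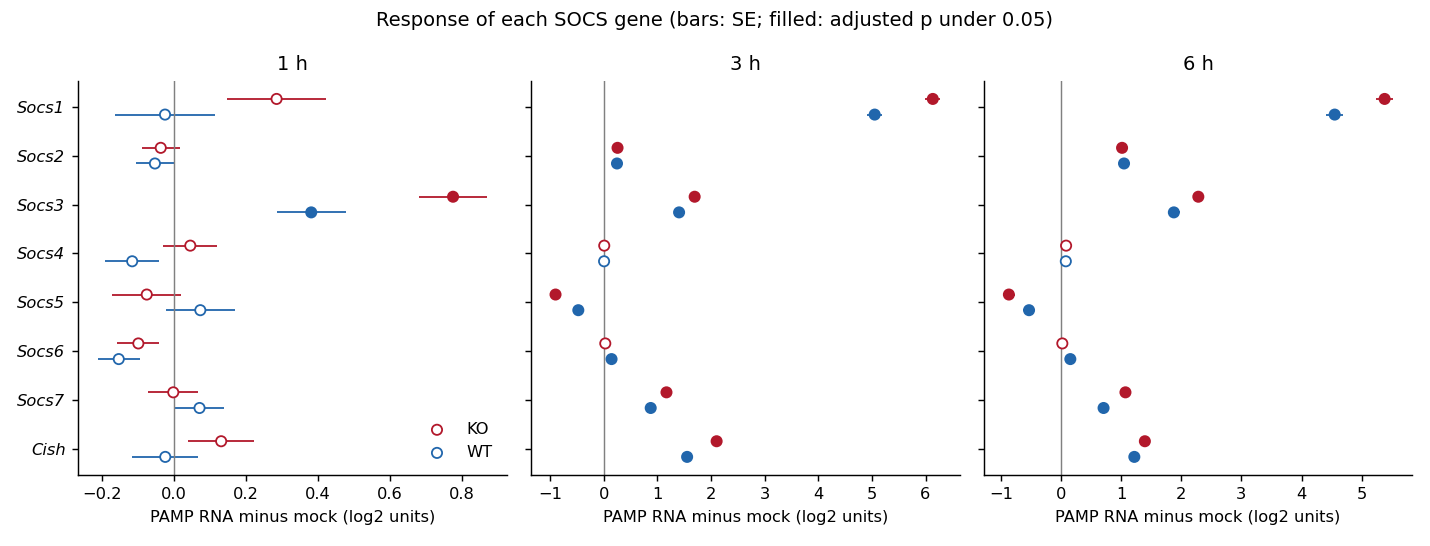
Response to PAMP RNA minus mock, in log2 units (horizontal axis; the scale differs between panels), of each gene at 1, 3 and 6 h in KO (red) and WT (blue) cells; bars are SE and filled points had an adjusted p under 0.05. Socs1 lies far to the right of the other genes at 3 and 6 h, and Socs3 is the only filled gene at 1 h. The filled Socs6 points of WT cells turned sign with quantile normalization and equal total reads.

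Whether the response differs in cells labelled KO was tested as the KO response minus the WT response. Socs1 had the larger rise in KO cells, by 1.08 (adjusted p = 0.0003, SE 0.20) log2 units at 3 h and 0.83 (adjusted p = 0.00336, SE 0.20) at 6 h. Cish had a larger rise in KO cells at 3 h, by 0.55 (adjusted p = 0.00817, SE 0.13). At 6 h so did Socs7, by 0.36 (adjusted p = 0.0101, SE 0.10), and Socs3, by 0.41 (adjusted p = 0.0433, SE 0.14). The Socs7 call was lost with equal total reads (0.25, adjusted p = 0.0653). That of Socs3 was lost with quantile normalization (0.30, adjusted p = 0.205), equal total reads (0.29, adjusted p = 0.15), edgeR (0.40, adjusted p = 0.0508), DESeq2 (0.40, adjusted p = 0.0633) and no filter on low values (0.41, adjusted p = 0.0934). It was also lost without WT mock 6 h replicate 1 or 3, or WT PAMP 6 h replicate 1 or 2, or KO mock 6 h replicate 2 or 3, or KO PAMP 6 h replicate 1 or 3 (0.33 to 0.43, adjusted p = 0.0569 to 0.155). In all, 2 of the 8 genes were called at 3 h (background 3.14% of genes called) and 3 at 6 h (background 10.5%), all with the larger value in KO cells. Most of the background ran the same way, with 82.3% of all called genes larger in KO cells at 3 h and 63.6% at 6 h. At 1 h limma called 0 of the 8 genes, 1 had an unadjusted p under 0.05, edgeR and DESeq2 each called 0, and 0.118% of all tested genes were called. The Socs5 response differed by -0.42 (adjusted p = 0.0803, SE 0.14) at 3 h and -0.34 (adjusted p = 0.112, SE 0.14) at 6 h, not called. The 6 h value was called without WT PAMP 6 h replicate 1 (-0.45, adjusted p = 0.0259), and both were called with equal total reads (-0.50, adjusted p = 0.0344, and -0.45, adjusted p = 0.0224). Socs7 at 3 h, 0.29 (adjusted p = 0.0956, SE 0.10), was called without WT mock 3 h replicate 1 (0.36, adjusted p = 0.0354). The Socs6 difference at 6 h, -0.13 (adjusted p = 0.347, SE 0.08), was called lower with equal total reads (-0.25, adjusted p = 0.0321). For Socs2 the difference was 0.01 at 3 h (95% interval -0.14 to 0.16) and -0.03 at 6 h (-0.19 to 0.12). For Socs4 it was 0.00 (-0.22 to 0.22) and 0.00 (-0.21 to 0.22). This difference reuses the libraries of both responses. The summed dendritic cell markers moved with genotype too, at 47997 to 48634 in KO cells and 60965 to 62725 in WT cells with PAMP RNA at 6 h. In mock cells at 6 h the sum was 39213 to 40162 in KO cells and 53397 to 54834 in WT cells. The part of these markers, and of the Dhx58 values that go against the label in mock cells and at 1 h with PAMP RNA, in the genotype differences was not tested.

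Set against each other directly, KO and WT cells with PAMP RNA differed in 3 members at 1 h, 1 higher and 2 lower in KO cells (background 9.15%). At 3 h 3 were higher and 1 lower (background 22.1%), and at 6 h 4 were higher and 1 lower (background 24.0%). Socs1 was 1.18 (adjusted p = 8.41e-09, SE 0.14) log2 units higher in KO cells at 3 h and 0.76 (adjusted p = 4.31e-05, SE 0.14) at 6 h. Socs3 was 0.79 (adjusted p = 1.49e-08, SE 0.10) higher at 3 h and 0.54 (adjusted p = 3.05e-05, SE 0.10) at 6 h. Cish was 0.46 (adjusted p = 0.000141, SE 0.09) higher at 3 h, and its 0.12 (adjusted p = 0.365, SE 0.09) at 6 h was not called. Socs2 was called lower in KO cells at each time, with differences of -0.23, -0.29 and -0.39 at 1, 3 and 6 h. Socs6 was called higher in KO cells at 1 h, 0.32 (adjusted p = 9.75e-05, SE 0.06), and at 6 h, 0.20 (adjusted p = 0.0111, SE 0.06). The 6 h call was lost with quantile normalization (0.10, adjusted p = 0.229) and equal total reads (0.09, adjusted p = 0.257) and without KO PAMP 6 h replicate 1 or 2 (0.16 to 0.17, adjusted p = 0.054 to 0.0802). Its 3 h value of 0.14 (adjusted p = 0.0898, SE 0.06) was called without WT PAMP 3 h replicate 3 (0.18, adjusted p = 0.0419). The 3 h value of Socs5, -0.25 (adjusted p = 0.0581, SE 0.10), was called with equal total reads (-0.31, adjusted p = 0.0141) and without KO PAMP 3 h replicate 3 (-0.30, adjusted p = 0.0445). The Socs7 call at 6 h, 0.19 (adjusted p = 0.0357, SE 0.07), was lost with quantile normalization (0.13, adjusted p = 0.196), equal total reads (0.09, adjusted p = 0.363), DESeq2 (0.19, adjusted p = 0.0504) and no filter (0.19, adjusted p = 0.0581). It was also lost without WT PAMP 6 h replicate 1 or 3, or KO PAMP 6 h replicate 1 or 2 (0.14 to 0.21, adjusted p = 0.0532 to 0.21). The call of Socs1 at 1 h, -0.42 (adjusted p = 0.0479, SE 0.14), was lost under 7 of the 10 other settings (-0.44 to -0.40, adjusted p = 0.0514 to 0.267). It was also lost without WT PAMP 1 h replicate 1 or 2, or KO PAMP 1 h replicate 2 or 3 (-0.41 to -0.32, adjusted p = 0.11 to 0.271).

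In mock cells the genotypes, as labelled, already differed. Socs2 was lower in KO cells at 1, 3 and 6 h, with differences of -0.24 (adjusted p = 0.000937, SE 0.05), -0.30 (adjusted p = 6.39e-05, SE 0.05) and -0.36 (adjusted p = 1.74e-06, SE 0.05) log2 units. Socs6 was higher, by 0.27 (adjusted p = 0.00112, SE 0.06), 0.25 (adjusted p = 0.00236, SE 0.06) and 0.33 (adjusted p = 6.01e-05, SE 0.06). Socs2 at 3 h had 933, 879 and 889 normalized counts in KO mock cells and 1120.5, 1062 and 1134 in WT mock cells. Socs6 had 1183, 1154 and 1125 in KO mock cells and 931, 1021 and 954 in WT mock cells, and neither gene's groups overlapped. Socs3 was called lower in KO cells at 1 h, -0.49 (adjusted p = 0.000183, SE 0.10), and higher at 3 h, 0.50 (adjusted p = 0.00018, SE 0.10). Socs1 was lower in KO mock cells at 1 h, -0.73 (adjusted p = 0.000151, SE 0.14), with 50.4, 62.0 and 45.8 in KO cells and 73.5, 93.4 and 96.8 in WT cells. Its differences of 0.10 at 3 h and -0.07 at 6 h were not called. Cish at 1 h, -0.30 (adjusted p = 0.0227, SE 0.09), was called lower, but not in a fit of only the groups compared (-0.30, adjusted p = 0.119) or without WT mock 1 h replicate 1, or KO mock 1 h replicate 2 or 3 (-0.30 to -0.20, adjusted p = 0.0661 to 0.198). Socs7 at 6 h, -0.17 (adjusted p = 0.105, SE 0.07), was called with quantile normalization (-0.20, adjusted p = 0.0455) and without WT mock 6 h replicate 1 (-0.25, adjusted p = 0.0213). Of the 8 genes, 1 was higher and 4 lower in KO mock cells at 1 h (background 11.6%). There were 2 higher and 1 lower at 3 h (background 8.22%) and 1 higher and 1 lower at 6 h (background 11.0%). The dendritic cell marker sum in mock cells was 32813 to 36065 in KO and 48777 to 50375 in WT cells at 1 h, and its part in these differences was not tested.

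**Figure D3:**
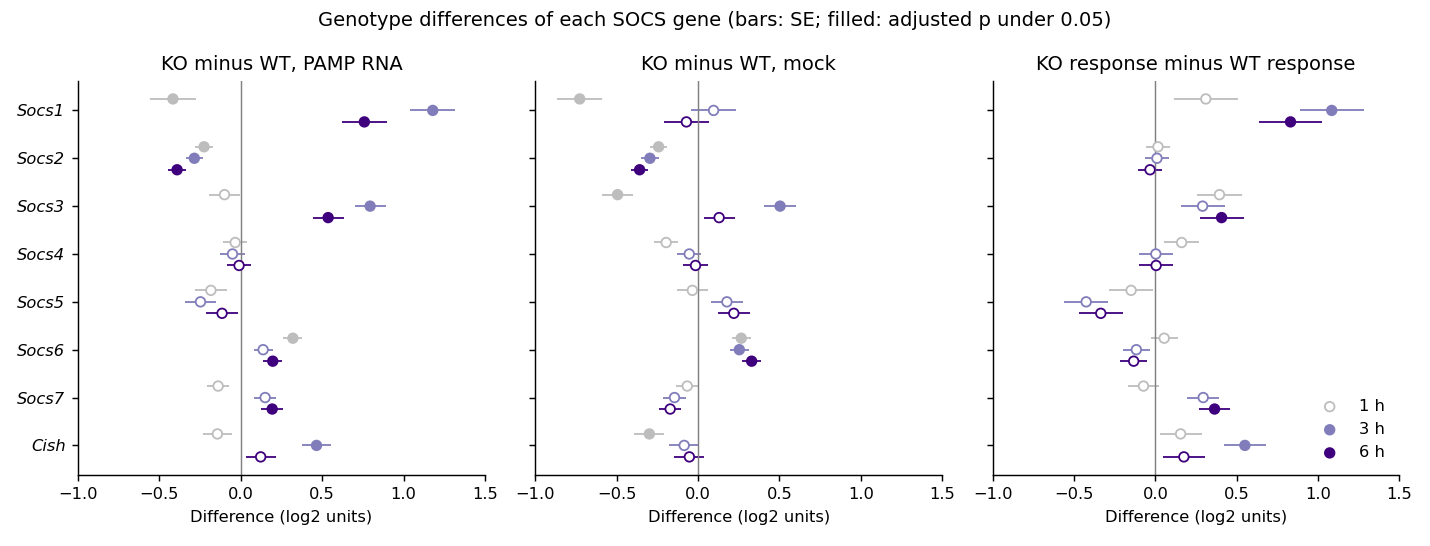
KO minus WT differences in log2 units (horizontal axes) of each gene, with PAMP RNA (left), in mock cells (middle) and in the response (right), at 1 h (grey), 3 h (light purple) and 6 h (dark purple); bars are SE and filled points had an adjusted p under 0.05. Socs1 at 3 h is the largest response difference, at 1.08, and Socs2 lies left of 0 with PAMP RNA and in mock cells but near 0 in the response.

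The mock cultures changed over time as well. Between 1 and 3 h, Cish fell to 106, 108 and 105 normalized counts in KO mock cells, against 219.9, 210.02 and 203 at 1 h. In WT mock cells it fell to 112, 108 and 119, against 299, 230.2 and 255 at 1 h. The changes were -0.98 (adjusted p = 1.44e-12, SE 0.09) in KO and -1.19 (adjusted p = 3.1e-15, SE 0.09) in WT mock cells. Socs5 rose to 282, 300.1 and 289.6 in KO mock cells, against 115, 123 and 122 at 1 h. In WT mock cells it rose to 260.3, 279 and 234, against 125, 121 and 122 at 1 h. The changes were 1.27 (adjusted p = 2.32e-15, SE 0.10) in KO and 1.06 (adjusted p = 8.33e-13, SE 0.10) in WT mock cells. No library of either gene at 3 h overlapped those at 1 h. Socs2 fell by 0.68 in KO and 0.63 in WT mock cells. Socs7 fell by 0.52 in KO and 0.44 in WT mock cells. Socs4 fell by 0.25 in KO and 0.39 in WT mock cells, and all of these were called. Socs3 changed by -1.23 (adjusted p = 5.21e-15, SE 0.10) in WT mock cells. Its change of -0.23 (adjusted p = 0.0456, SE 0.10) in KO mock cells was lost under 7 of the 10 other settings (-0.23 to -0.21, adjusted p = 0.0532 to 0.0953). It was also lost without KO mock 1 h replicate 2 or 3, or KO mock 3 h replicate 2 (-0.20 to -0.13, adjusted p = 0.142 to 0.349). Socs1 rose by 0.56 (adjusted p = 0.000816, SE 0.14) in KO mock cells. Its change of -0.26 (adjusted p = 0.127, SE 0.14) in WT mock cells was called lower without WT mock 1 h replicate 1 (-0.38, adjusted p = 0.0358). In all, 2 of the 8 genes were higher and 5 lower at 3 h than at 1 h in KO mock cells (background 42.9%). In WT mock cells 1 was higher and 5 lower (background 43.5%). Between 3 and 6 h, 2 were called, both lower, in KO mock cells (background 43.3%) and 1 higher and 3 lower in WT mock cells (background 43.7%). Socs6 and Socs2 were called in both genotypes. The changes of Socs6 were -0.20 in KO and -0.28 in WT mock cells, and those of Socs2 were -0.26 and -0.20. The WT call of Socs3, 0.24, was lost with equal total reads (0.18, adjusted p = 0.122), edgeR (0.26, adjusted p = 0.0569), no filter on low values (0.24, adjusted p = 0.0798) and a fit of only the groups compared (0.24, adjusted p = 0.0744). The Socs3 call was also lost without WT mock 3 h replicate 1 or 2, or WT mock 6 h replicate 1 or 3 (0.16 to 0.24, adjusted p = 0.0709 to 0.23). The WT call of Cish, -0.23, was lost with quantile normalization (-0.19, adjusted p = 0.0823), edgeR (-0.22, adjusted p = 0.0897), DESeq2 (-0.19, adjusted p = 0.215) and a fit of only the groups compared (-0.23, adjusted p = 0.112). This call was also lost without WT mock 3 h replicate 1 or 3, or WT mock 6 h replicate 2 (-0.24 to -0.14, adjusted p = 0.0624 to 0.258). In KO mock cells between 3 and 6 h, equal total reads also called Cish (-0.26, adjusted p = 0.0175) and Socs7 (-0.18, adjusted p = 0.0213) lower.

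The response itself was compared between times, with each time's own mock cells taken off. Between 1 and 3 h it grew for Socs1, Cish, Socs7, Socs3 and Socs2 in both genotypes and turned down for Socs5. Growth of the response did not always mean a higher level with PAMP RNA. Socs2 with PAMP RNA averaged 1409 at 1 h and 1075 at 3 h in KO cells, and 1648 and 1310 in WT cells. Its mock means went from 1445 to 900 in KO and from 1710 to 1106 in WT cells. Socs3 in WT cells went from 462 to 399 with PAMP RNA and from 354 to 151 in mock cells. In KO cells Socs3 with PAMP RNA rose from 431 to 692. Nor did the downturn of Socs5 mean a lower level with PAMP RNA, which went from 114 to 155 in KO and from 130 to 185 in WT cells. Mock means of Socs5 rose more, from 120 to 291 in KO and from 123 to 258 in WT cells. For Cish the change in response was 1.97 (adjusted p = 7.23e-18, SE 0.13) in KO cells and 1.58 (adjusted p = 2.42e-14, SE 0.13) in WT cells. This change too holds a fall of the mock cells. Cish with PAMP RNA averaged 232 at 1 h and 461 at 3 h in KO cells, and 256 and 334 in WT cells. Mock means of Cish went from 211 to 107 in KO and from 261 to 113 in WT cells. For Socs7 it was 1.17 (adjusted p = 3.14e-14, SE 0.10) in KO and 0.80 (adjusted p = 3.05e-09, SE 0.10) in WT cells. In KO cells 5 of the 8 genes changed upward and 1 downward (background 38.5%), and in WT cells 6 upward and 1 downward (background 29.1%), with Socs6 the sixth. The Socs6 call and both Socs2 calls were lost with quantile normalization and with equal total reads. Equal total reads called Socs4 lower in KO cells (-0.32, adjusted p = 0.012). Between 3 and 6 h the members parted: Socs2 and Socs3 went on growing while Socs1 and Cish shrank. Socs2 changed by 0.76 (adjusted p = 1.55e-11, SE 0.07) in KO cells and 0.80 (adjusted p = 6.04e-12, SE 0.07) in WT cells. Socs3 changed by 0.59 (adjusted p = 0.000415, SE 0.14) in KO and 0.47 (adjusted p = 0.0052, SE 0.14) in WT cells. The WT call of Socs3 was lost with quantile normalization (0.31, adjusted p = 0.0829) or equal total reads (0.28, adjusted p = 0.103). Socs1 changed by -0.75 (adjusted p = 0.00166, SE 0.20) in KO cells and Cish by -0.71 (adjusted p = 1.45e-05, SE 0.13). In WT cells the call of Socs1, -0.50 (adjusted p = 0.0428, SE 0.20), was lost with TMM scaling (-0.48, adjusted p = 0.0522), edgeR (-0.45, adjusted p = 0.139), DESeq2 (-0.47, adjusted p = 0.154) and no filter on low values (-0.50, adjusted p = 0.114). It was also lost without WT mock 3 h replicate 2 or 3, or WT PAMP 3 h replicate 1, 2 or 3, or WT mock 6 h replicate 1 or 3, or WT PAMP 6 h replicate 2 (-0.52 to -0.25, adjusted p = 0.0557 to 0.29). That of Cish, -0.33 (adjusted p = 0.0395, SE 0.13), was lost with TMM scaling (-0.32, adjusted p = 0.0522), edgeR (-0.34, adjusted p = 0.0553) and DESeq2 (-0.36, adjusted p = 0.0663). The Cish call was also lost without WT mock 3 h replicate 1 or 2, or WT PAMP 3 h replicate 1, 2 or 3, or WT mock 6 h replicate 1 or 3, or WT PAMP 6 h replicate 1 or 2 (-0.34 to -0.28, adjusted p = 0.0535 to 0.109). Without WT PAMP 6 h replicate 2, the WT value of Socs1 was -0.25. In KO cells 2 of the 8 genes changed upward and 2 downward (background 40.8%), and in WT cells 2 upward and 2 downward (background 34.3%). Under equal total reads Socs6 in KO cells (-0.24, adjusted p = 0.0114) and Socs7 in KO (-0.33, adjusted p = 0.0029) and WT cells (-0.36, adjusted p = 0.00161) were called lower too. Socs7 in WT cells was also called lower with quantile normalization (-0.29, adjusted p = 0.0151) and without WT mock 6 h replicate 1 (-0.25, adjusted p = 0.0478).

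Levels of different genes can be compared only per length, so normalized counts were divided by the kilobases of the union of each gene's exons. On this scale Socs2 led the family in WT mock cells at each time, at 179 ± 5.57, 116 ± 4.04 and 101 ± 7.55 (mean ± SD, n = 3) at 1, 3 and 6 h. In KO mock cells Socs2 led at 1 h, at 152 ± 4.51, and Socs6 at 3 and 6 h, at 102 ± 2.55 and 88.3 ± 2.82. With the longest transcript as the length Socs2 led in all 6 mock groups. Socs1 was last or next to last in every mock group and at 1 h with PAMP RNA, between 18.1 and 30.2 per kb. With PAMP RNA it came first at 3 h, at 1909 ± 197 in KO cells and 840.2 ± 31.8 in WT cells, and at 6 h, at 1211 ± 162 in KO and 732 ± 201 in WT cells. Socs3 came second in those 4 groups, at 239 ± 12.9 in KO and 138 ± 11.7 in WT cells at 3 h. At 6 h it was 328 ± 16.5 in KO and 227 ± 26.8 in WT cells. In WT cells at 3 h Socs3 and Socs2 differed by less than their SDs, with Socs2 at 137 ± 1.63. With the longest transcript as the length Socs3 was next to Socs1 in KO cells at 3 and 6 h, at 271 ± 14.6 and 372 ± 18.7, against 253 ± 12.5 and 358 ± 8.21 for Socs2. In WT cells it then lay below Socs2 at both times, at 156 ± 13.3 and 257 ± 30.4, against 309 ± 3.67 and 471 ± 35.3 for Socs2, and at 3 h also below Socs6, at 177 ± 10.0. The share of Socs1 in all normalized counts of the 8 genes was taken without division by length, so it also depends on exon length. It was 53.4% ± 2.64 in KO and 35.3% ± 0.93 in WT cells with PAMP RNA at 3 h. In mock cells it was 2.25% ± 0.26 and 2.12% ± 0.26 in KO and WT cells.

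**Figure D4:**
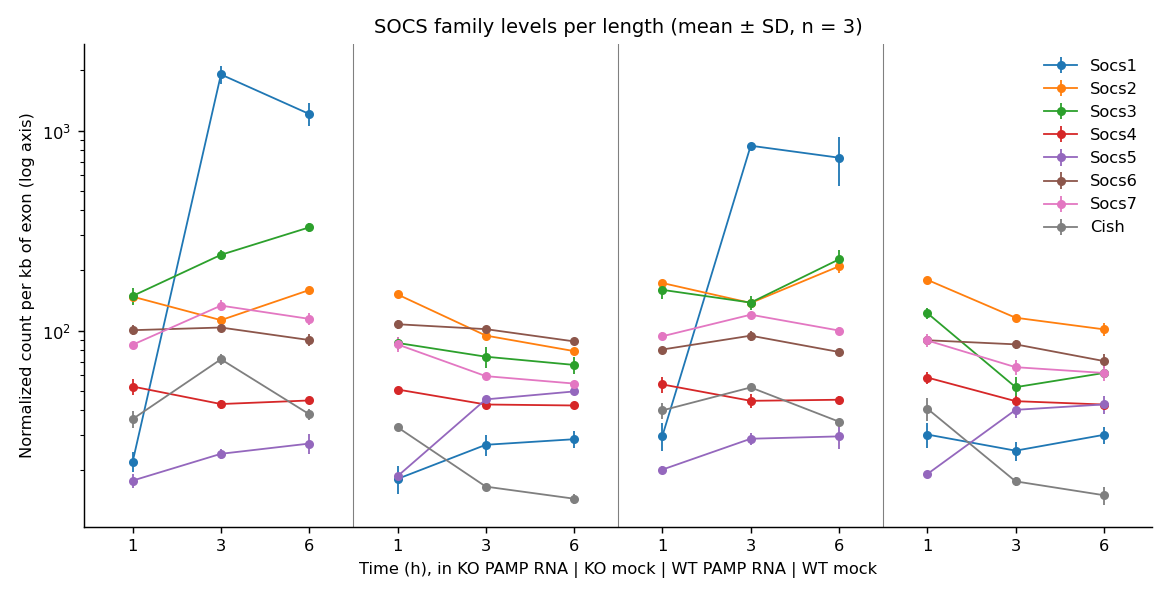
Normalized counts per kilobase of exon (log axis; mean ± SD, n = 3) of the 8 genes at 1, 3 and 6 h in KO cells with PAMP RNA, KO mock cells, WT cells with PAMP RNA and WT mock cells. Socs1 crosses from the bottom of the family at 1 h to the top at 3 and 6 h with PAMP RNA, at 1909 in KO and 840.2 in WT cells at 3 h.

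The genes whose 12 group means ran most like those of each member were looked up among the 9789 genes that average 50 or more normalized counts, by Pearson's r of the log2 values. The 12 groups share genotypes, times and treatments. For Socs1 they were Mxd1 (0.997), Dcp2 (0.997) and Cdkn1a (0.995). For Cish they were Prkd3 (0.984), Ttc39b (0.979) and Kmo (0.974). For Socs3 they were Fzd5 (0.975), Bloc1s4 (0.974) and Hbegf (0.970), and for Socs2 Vat1l (0.972), Mex3b (0.965) and Rnf2 (0.958). For Socs7 they were Ffar4 (0.973), Zfand5 (0.965) and Arid5a (0.963), and for Socs5, whose pattern ran the other way, Ehf (0.979), 5330426P16Rik (0.976) and Zdhhc24 (0.976). Socs4 ran most like Cd44 (0.973), Larp4b (0.969) and Usp6nl (0.965), and Socs6 most like Asah1 (0.934), Abhd15 (0.918) and Ncln (0.909). Within the family Socs7 and Cish were the closest pair, at 0.961 over the 12 groups, and Socs4 and Socs5 the most opposed, at -0.818. Socs1 and Socs2, both higher with PAMP RNA at 6 h, reached 0.249.

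The cytokines, receptors and kinases around the family were taken from chosen lists of known genes. The counts below stand against 71.7% of all tested genes called in KO and 65.4% in WT cells at 6 h, and nothing particular to a list is read from them. Of 19 cytokines and interferons that feed JAK-STAT receptors, 8 had a mean of at least 10. Among them Ifnb1 and Il27 averaged under 10 in every mock group and passed through the PAMP RNA groups, so no count is given for this list. Ifnb1, the interferon-β gene, averaged 956 ± 28.1 normalized counts in KO and 571 ± 38.9 in WT cells with PAMP RNA at 1 h. In mock cells it averaged 0.543 ± 0.471 in KO and 0.321 ± 0.556 in WT cells (SD, n = 3 each). Il6, whose product signals through gp130, averaged 117 ± 5.07 in KO and 58.0 ± 6.66 in WT cells with PAMP RNA at 1 h. Its mock cells held 4.64 ± 2.96 in KO and 5.88 ± 1.24 in WT cells. Of 25 cytokine receptor chains 20 were tested, with 11 higher and 7 lower in KO cells (median 0.30) and 11 higher and 7 lower in WT cells (median 0.16) at 6 h. With equal total reads the higher and lower counts were 5 and 11 in KO and 4 and 13 in WT cells. Il10ra, a chain of the IL-10 receptor, rose by 1.28 and 0.90 in KO cells and 1.20 and 0.63 in WT cells at 3 and 6 h. Ifngr1, of the interferon-γ receptor, was called lower, with responses of -0.95 and -1.60 in KO cells and -0.82 and -1.25 in WT cells. Il6st, which encodes gp130, was called lower too, with responses of -0.41 and -0.66 in KO cells and -0.17 and -0.60 in WT cells.

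All 11 Janus kinase and STAT genes were tested, with 8 higher and 1 lower in KO cells (median 0.68) and 8 higher and 0 lower in WT cells (median 0.66) at 6 h (background 71.7% in KO and 65.4% in WT cells). Scaled to equal total reads, the higher and lower counts were 6 and 4 in KO and 7 and 4 in WT cells. Stat2, which acts in interferon signalling, rose by 3.24 and 3.28 in KO cells and 3.19 and 2.84 in WT cells at 3 and 6 h. Jak2, a kinase that SOCS1 and SOCS3 inhibit, rose by 0.84 and 1.19 in KO cells and 0.45 and 0.75 in WT cells. The Jak2 rise was larger in KO cells, by 0.39 (adjusted p = 4.8e-05, SE 0.06) at 3 h and 0.44 (adjusted p = 2.28e-06, SE 0.06) at 6 h.

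Cish and Socs2 are STAT5 targets, and the 12 other STAT5 targets listed gave 12 higher and 0 lower in KO cells (median 1.86) and 11 higher and 0 lower in WT cells (median 1.56) at 6 h (background 71.7% in KO and 65.4% in WT cells). With equal total reads the higher and lower counts were 11 and 0 in KO and 10 and 0 in WT cells. With quantile normalization the listed gene Mcl1 turned from 0.67 to -0.16 (limma, adjusted p = 0.0022) in KO cells at 6 h. Pim1, a kinase gene, rose by 1.73 and 1.90 in KO cells and 1.31 and 1.53 in WT cells at 3 and 6 h. Ccnd2, a cyclin gene, rose by 3.07 and 4.64 in KO cells and 2.37 and 3.89 in WT cells. Between genotypes the STAT5 target response at 6 h was 7 higher and 0 lower in KO cells (median 0.38, background 10.5%), and 4 and 0 with equal total reads or 3 and 1 with quantile normalization. Ccnd2 was among those called higher, by 0.75 (adjusted p = 5.72e-10, SE 0.07). In mock cells at 6 h the same list was already 1 higher and 6 lower in KO cells (median -0.24, background 11.0%). KO and WT cells with PAMP RNA at 6 h differed by 5 higher and 2 lower (median 0.14, background 24.0%). Socs3 is known as a STAT3 target, and the 12 other STAT3 targets listed gave 9 higher and 1 lower in KO cells (median 0.85) and 11 higher and 1 lower in WT cells (median 0.87) at 6 h. Scaled to equal total reads, the higher and lower counts were 8 and 3 in KO and 7 and 2 in WT cells. Il1rn, the IL-1 receptor antagonist gene, rose by 1.39 and 2.42 in KO cells and 0.94 and 1.90 in WT cells at 3 and 6 h.

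The list of SOCS box ubiquitin ligase partners held 13 symbols, with elongins B and C each under an old and a new symbol. Of these symbols 11 were in the table and tested. At 3 h there were 3 higher and 1 lower in KO cells (median 0.08, background 50.6%). WT cells at 3 h had 2 higher and 1 lower (median 0.11, background 41.6%). At 6 h there were 8 higher and 2 lower in KO cells (median 0.33) and 8 higher and 2 lower in WT cells (median 0.31), where the background was 71.7% in KO and 65.4% in WT cells. The counts that follow are at 6 h against the same background. With equal total reads the higher and lower counts were 3 and 5 in KO and 2 and 4 in WT cells. Tceb1, which encodes elongin C, rose by 0.89 in KO cells and 0.77 in WT cells at 6 h. Cul5, the cullin of the complex, had responses of -0.04 and -0.05 in KO cells and -0.12 and 0.12 in WT cells at 3 and 6 h, with no call. Of 17 tested brakes of other kinds there were 11 higher and 4 lower in KO cells (median 0.28) and 10 higher and 4 lower in WT cells (median 0.22) at 6 h. Scaled to equal total reads, the higher and lower counts were 5 and 9 in KO and 4 and 9 in WT cells. Usp18, a protease that removes ISG15 and damps the interferon-α/β receptor, rose by 5.22 and 5.18 in KO cells and 4.86 and 4.25 in WT cells at 3 and 6 h. Of 15 tested SOCS box proteins outside the family there were 8 higher and 3 lower in KO cells (median 0.36) and 9 higher and 5 lower in WT cells (median 0.33) at 6 h. With equal total reads the higher and lower counts were 6 and 8 in KO and 6 and 6 in WT cells. Asb13, of the ankyrin repeat branch, rose by 2.38 and 3.25 in KO cells and 2.02 and 2.76 in WT cells at 3 and 6 h. Spsb1, of the SPRY domain branch, rose by 1.43 and 2.01 in KO cells and 0.91 and 1.62 in WT cells. Of 15 tested proteins reported to be bound or degraded by SOCS proteins there were 7 higher and 6 lower in KO cells (median 0.26) and 7 higher and 6 lower in WT cells (median 0.15) at 6 h. Scaled to equal total reads, the higher and lower counts were 3 and 9 in KO and 3 and 9 in WT cells.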

How the data were processed

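RNA was sequenced as 100-base single reads on an Illumina HiSeq from libraries made with SMARTer and Nextera XT kits, which do not mark strand, per the labels' protocols. The submitters' processing notes name TopHat, Cufflinks, DESeq2 and the genome GRCm38 (mm10). Versions and filters: not given in the sources used here. Deposited by the authors was a signal per gene, read counts divided by the DESeq size factor of each library. Values were all (100%) whole multiples of a library's smallest step within 0.01 read, so whole reads were recovered by division, 4740909 to 14255730 per library. Libraries of a group differed by more than sampling noise, with a chi-square over its degrees of freedom of 1.32 to 5.87, and each counts as 1 sample.

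A filter kept the 11853 genes averaging 10 or more, as log2(normalized count + 1), a scale that understates the change of low genes. limma 3.58.1 (R 4.3.3) with a mean-variance trend modelled the 12 groups, leaving 24 degrees of freedom. The 23 contrasts were tested two-sided, each with Benjamini-Hochberg adjustment over genes. SEs are limma's and 95% intervals use 24 degrees of freedom. edgeR 4.0.16 (quasi-likelihood) and DESeq2 1.42.0 served as alternatives on those whole reads, beside quantile normalization, equal total reads, TMM scaling, pseudocounts of 0.5 and 5, no filter, fits of only the groups compared, a replicate block and leaving out each library. Fits were tested on simulated data. The named genes are the 8 members, Dhx58, the 3 genes most like each member and members of the lists. The members and lists were chosen with earlier results of these data known. The recount of the lists under equal total reads was added after seeing the data. Gene lengths and positions come from GENCODE (GRCm38).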

Additional observations from a re-analysis of the deposited data

Results flagged for a closer look

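These results stand out because the effect of PAMP RNA differed between genotypes or between times by a test of the difference itself (limma, log2 units). A single library far from the others in a group of 3 was not a reason for a flag here. Fits without each library in turn and under the other settings are given above. Under at least 1 other setting the calls of Socs3 and Socs7 between genotypes at 6 h were lost. The same held between 1 and 3 h for Socs2 in both genotypes and Socs6 in WT cells. Between 3 and 6 h it held for Socs1, Cish and Socs3 in WT cells. Between genotypes, the KO response exceeded the WT response for Socs1 at 3 h (1.08) and 6 h (0.83), Cish at 3 h (0.55), and Socs3 (0.41) and Socs7 (0.36) at 6 h. Between 1 and 3 h the response changed in KO and WT cells by 5.85 and 5.08 for Socs1, 1.97 and 1.58 for Cish, and 1.17 and 0.80 for Socs7. It changed by 0.92 and 1.02 for Socs3, 0.29 and 0.30 for Socs2, -0.83 and -0.55 for Socs5, and 0.30 for Socs6 in WT cells. Between 3 and 6 h it changed in KO and WT cells by 0.76 and 0.80 for Socs2, 0.59 and 0.47 for Socs3, -0.75 and -0.50 for Socs1, and -0.71 and -0.33 for Cish. The summed dendritic cell markers, mostly Cd74, H2-Aa and H2-Ab1, were lower in KO cells throughout. Their part in the genotype differences was not tested.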

How the results depend on the processing

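The number of calls over the 8 genes stayed within 1.5 times under every setting run: 28 (26 to 30 under the other settings, 27 to 28 without 1 library) in the 6 responses, 5 (4 to 6 under the other settings, 4 to 6 without 1 library) in the genotype difference of the response, 10 (9 to 11 under the other settings, 9 to 11 without 1 library) between genotypes in mock cells and 12 (9 to 12 under the other settings, 10 to 13 without 1 library) with PAMP RNA. Between times it was 19 (16 to 19 under the other settings, 17 to 20 without 1 library) in mock cells and 21 (18 to 21 under the other settings, 19 to 21 without 1 library) in the response. Of 3280 single values, 3132 kept their direction and side of the threshold or were never called, 118 lost the call, 19 gained one and 11 turned sign. With equal total reads the turned values in log2 units were, for Socs4, -0.24 (KO, 3 h), -0.40 (KO, 6 h) and -0.29 (WT, 6 h), and for Socs6 -0.22 and -0.47 (KO, 3 and 6 h) and -0.033 and -0.22 (WT). With quantile normalization Socs6 turned to -0.24 and -0.34 (KO, 3 and 6 h) and -0.032 and -0.10 (WT).

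Equal total reads moved the median response of all genes to -0.28 and -0.51 in KO cells and -0.20 and -0.39 in WT cells at 3 and 6 h. Of the genes called, 20.8%, 20.2%, 23.0% and 20.8% were then higher, against 47.0%, 49.0%, 47.1% and 49.0% with the deposited size factors; quantile normalization gave 34.8%, 40.4%, 33.9% and 40.0%. Over all genes, calls moved by more than 1.5 times for the genotype difference of the response at 1 h (9 by edgeR and 9 by DESeq2, limma 14) and at 3 h (242 with quantile normalization, limma 372). Fits of only the groups compared called 69 genes in the WT response at 1 h (112 otherwise) and 728 between mock genotypes at 1 h (1377 otherwise), and equal total reads called 6941 and 5489 changes of the KO and WT response between 1 and 3 h (4559 and 3448 otherwise). With the longest transcript as length, levels per kb in KO cells with PAMP RNA at 3 h were 253 for Socs2, 271 for Socs3, 33.4 for Socs5, 195 for Socs6 and 98.3 for Cish, and in WT mock cells at 1 h 403, 139, 26.5, 168 and 55.6.

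The replicate numbers did not pair the libraries: deviations of same-numbered libraries correlated at a median of 0.0017 over 198 pairs (-0.11 to 0.18), and 12 of 36 libraries lay nearest to one of their own number. With the replicate block the calls were the same in number, 28 in the responses, and 0 of the 184 single values changed sides. The cause of these changes was not tested. Depth limits Socs1 in mock cells most, with as few as 57 reads in a library.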
